A study of Homo sapiens with 12 samples.

Results

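YAP-TFE3 (YT) and TAZ-CAMTA1 (TC) are the fusion proteins that define epithelioid hemangioendothelioma, a vascular sarcoma, and here both were expressed in SW872, an established human liposarcoma cell line. The comparison is YT against TC in the libraries whose cells carried a short hairpin against YEATS2 (shYEATS2), so the question is which differences between the fusion lines were present with YEATS2 lowered in both. The libraries were chosen by their titles, and they are 4 of the 12 RNA-seq libraries of the series, 2 labelled YT shYEATS2 and 2 labelled TC shYEATS2. The other 8 libraries, 2 per group, came from YT and TC cells with a non-targeting hairpin (shNT) or a hairpin against ZZZ3 (shZZZ3). Every library held a fusion and a hairpin, and a fusion-free line is not part of these comparisons. As models the lines are limited: the fusions were introduced by retrovirus into pooled, drug-selected cells of a sarcoma type other than the one in which they arise, and the study called its replicates biological duplicates. For other libraries of the study, lines described as containing CAMTA1 were collected below confluence and the remaining lines at confluence. Whether that wording covers the TAZ-CAMTA1 line as well as the CAMTA1 line is not stated. The sources do not say how these knock-down lines were collected, and cell density and fusion cannot be told apart here.

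Both fusions keep the TEAD-binding N terminus of a Hippo pathway coactivator, TAZ (gene WWTR1) or YAP (gene YAP1), and replace its C terminus with that of a transcription factor. CAMTA1 is a calmodulin-binding transcription activator, and TFE3 is a basic helix-loop-helix factor best known for driving lysosome and autophagy genes through E-box sequences. YAP and TAZ, held in the cytoplasm by the Hippo kinases, bind TEAD factors in the nucleus and turn on matricellular and growth genes such as CCN1, CCN2 and ANKRD1. YEATS2 is the subunit of the ATAC acetyltransferase complex that reads acetylated histone H3, and ZZZ3 is another ATAC subunit.

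The sources used here do not say which YEATS2 hairpin was in these libraries. The study's screen lists 5, and their oligos are shown because a hairpin against YEATS2 is what the 4 libraries have in common. Whether the TC and YT lines carried the same hairpin is not given either. Capitals mark the 21-base sense strand that matches the YEATS2 transcript, and the part after the loop (ctcgag) is its reverse complement. Matched to GRCh38 (YEATS2, plus strand), sh1 lay at chr3:183736763-183736783, sh2 at chr3:183773706-183773726 and sh5 at chr3:183722063-183722083, each in a coding exon. The sh3 target lay at chr3:183811777-183811797 in an untranslated stretch of an exon. The sh4 target was found in a YEATS2 transcript but not as an unbroken run in the gene.
sh1: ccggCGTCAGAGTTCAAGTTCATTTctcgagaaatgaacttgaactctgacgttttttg
sh2: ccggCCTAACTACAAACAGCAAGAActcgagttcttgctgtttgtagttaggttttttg
sh3: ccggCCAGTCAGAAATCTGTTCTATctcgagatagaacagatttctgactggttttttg
sh4: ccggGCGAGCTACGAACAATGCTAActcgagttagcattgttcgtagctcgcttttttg
sh5: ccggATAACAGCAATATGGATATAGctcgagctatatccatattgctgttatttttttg

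YEATS2 itself was at 45.5 and 35.1 CPM (counts scaled to the library's total and composition) in TC shYEATS2 and at 33.9 and 38.5 CPM in YT shYEATS2. In the shNT libraries it was at 113 and 123 CPM in TC and at 115 and 117 CPM in YT. The knock-down was therefore present in all 4 libraries, at log2 -1.55 ± 0.18 (SE of the edgeR fit, n = 2 libraries per group here and throughout; adjusted p = 0.0138) in TC and -1.68 ± 0.18 (adjusted p = 0.0001) in YT. The lines did not differ beyond replicate spread in the YEATS2 that remained (log2 -0.16 ± 0.17, adjusted p = 0.637). Of the 11 ATAC subunits, 0 were called between the lines by edgeR at an adjusted p under 0.05, the rule for every call here, 0 to 3 were called lower in YT under the other normalisations and tools, and 1 of the 11 had a log2 difference above 0. At the whole-gene level CAMTA1 was at 111 and 78.2 CPM in TC and at 23.6 and 23.9 CPM in YT, as the TC label implies (log2 -1.99 ± 0.22, adjusted p = 0.000193). It was lower in YT under the other 2 hairpins as well, by a log2 difference of -1.31 in shNT and -2.44 in shZZZ3. YAP1 (152 and 189 CPM in TC, 184 and 168 in YT) and TFE3 (189 and 160 CPM in TC, 208 and 209 in YT) were not called, so their counts gave no check of the YT label. WWTR1 was higher in YT, at 334 and 253 CPM against 161 and 194 in TC (log2 0.73 ± 0.20, adjusted p = 0.0362), and was called in 0 of the 4 fits that left out a library of this comparison. Counts of these 4 genes do not separate the fusion transcript from the cell's own.

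The 4 libraries held 28038851 and 19206236 counts (TC) and 25086177 and 19843181 counts (YT), within the range of 17451893 to 29294805 over all 12. Mitochondrial genes took 4.43% to 6.17% of their counts. The 2 TC shYEATS2 libraries stood apart from each other: 698 of the 13258 genes averaging 50 or more counts (5.26%) were 2-fold or more apart between them, against 55 (0.415%) in YT shYEATS2. The TC shNT pair, on which every comparison with shNT rests, was wider by this count, at 1196 genes (9.02%). The YT shZZZ3 pair had 672 (5.07%), YT shNT 103 (0.777%) and TC shZZZ3 28 (0.211%). By Euclidean distance in log2 CPM over the 500 most variable genes, the TC pair lay 32.2 apart and the YT pair 9.69, and replicate 2 of TC was nearer to both YT libraries (57 and 58.4) than replicate 1 was (68.5 and 69.4). The TC shYEATS2 libraries lay 24.2 to 27.6 from those of TC shNT, and the YT shYEATS2 libraries 68.0 to 68.6 from those of YT shNT. The trend of level with gene GC content (the highest less the lowest decile of genes, log2) was 0.36 and -0.05 in the TC shYEATS2 libraries and 0.10 and 0.40 in the YT shYEATS2 libraries. It was 0.869 and -0.657 in TC shNT, -0.619 and -0.376 in YT shNT, 0.221 and 0.0693 in TC shZZZ3, and 0.480 and -0.755 in YT shZZZ3. Mesenchymal markers summed to between 8383 and 10050 CPM in the 4 libraries, and all 10 were above 3 counts in each. Of 15 adipocyte genes, 4 or 5 were at 3 counts or fewer in each library, and FABP4, ADIPOQ, LEP and CIDEC, which define mature fat cells, averaged under 5 counts over the 12 libraries and were not tested. Of 14 epithelial and blood cell markers, 3 to 5 were at 3 counts or fewer, and the list summed to 959 and 302 CPM in TC and to 594 and 496 CPM in YT, mostly keratins 8 and 18. Of the 10 tested, 2 were called higher in YT and 1 lower. KRT8 was the lower one, at 315 and 60.1 CPM in TC and 45.5 and 43.8 in YT, and was called in 1 of the 4 fits that left out a library. LYZ, a lysozyme of myeloid cells, was higher, at 0.212 and 0.502 CPM in TC and 3.41 and 2.79 in YT, in all 4 such fits, and CD14, at 1.90 and 0.603 CPM in TC and 3.87 and 4.13 in YT, in 1. The part of other cell types in any result was not tested.

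Between the lines with YEATS2 lowered, 2242 of 18415 genes tested were called (12.2%), 1040 higher in YT (5.65%) and 1202 lower (6.53%). Of these, 1767 differed at least 2-fold, 778 higher and 989 lower. In 2239 of the 2242 the pairs of libraries did not overlap, which was true of 59.7% of all genes tested. The count depended on the libraries: it was 1474 without TC shYEATS2 replicate 1, 2109 without replicate 2, 841 without YT shYEATS2 replicate 1 and 994 without replicate 2, and 724 of the 2242 genes (388 higher and 336 lower) were called in the same direction in each of those 4 fits. With each library's GC trend removed it was 4457. Among the genes called lower in YT, the TC replicates were 2-fold or more apart in 272 (22.6%), with replicate 1 the higher in 206, and the YT replicates in 53 (4.41%). Among the genes called higher, the TC replicates were that far apart in 145 (13.9%) and the YT replicates in 7 (0.673%).

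The largest differences toward YT were in genes that TC barely expressed. SEMA3A, a secreted axon guidance factor, was at 0.0705 and 0.151 CPM in TC and 35.2 and 32.9 CPM in YT, at least 266-fold higher against a floor of 3 counts per library. ABI3BP, a matrix-binding protein, was at 0.529 and 0.151 CPM in TC and 39.8 and 39.6 in YT (log2 6.47 ± 0.44, adjusted p = 9.75e-06). FGF5, a fibroblast growth factor, was at 0.317 and 0 CPM in TC and 24.7 and 18.1 in YT (log2 6.32 ± 0.57, adjusted p = 4.04e-05). The neuronal microtubule protein MAP2 and the ephrin ligand EFNA5 were also among the 10, at 15.2 and 12.5 CPM and at 19.8 and 18.5 CPM in YT, with both genes at no more than 0.452 CPM in each TC library. FOXA2, a forkhead factor of endodermal tissues, was at 0.458 and 1.76 CPM in TC and at 50.1 and 46.7 CPM in YT. The remaining genes of the 10 were SPTSSB, MMP16, FLRT3 and the prostaglandin F receptor gene PTGFR. SPTSSB had no count in either TC library and was at 4.70 and 6.19 CPM in YT, at least 42.5-fold higher. All 10 were called in each of the 4 fits that left out a library of this comparison.

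The largest differences toward TC were of another kind, since replicate 1 of TC was well above replicate 2 in most of them. TRIML2 was at 75.4 and 2.71 CPM in TC and at 0.167 and 0.103 CPM in YT (log2 -7.44 ± 1.42, adjusted p = 0.00318), and its call held in 2 of the 4 fits that left out a library. PARM1, a mucin-like membrane protein, was at 193 and 25.6 CPM in TC and at 1.46 and 1.86 in YT. WT1, the Wilms tumor transcription factor, was at 43.2 and 5.93 CPM in TC and at 0.375 and 0.465 in YT. KIAA1210, ZFP42 (the pluripotency factor REX1), CALB2 (the calcium-binding protein calretinin), SLIT3 and SHISAL1 were also higher in replicate 1 of TC than in replicate 2. CUX2, a homeobox factor, went the other way, at 6.17 and 28.5 CPM in TC against 0.125 and 0.155 in YT, at least 124-fold lower. RIMS4, a synaptic scaffold protein, was the gene of the 10 whose TC replicates lay closest, at 33.3 and 26.2 CPM against 0.333 and 0.103 in YT (log2 -6.56 ± 0.44, adjusted p = 9.6e-06). The 10 were picked from genes whose pairs of libraries did not overlap, so both TC libraries lay above both YT libraries by choice. In all but CUX2 replicate 1 of TC was the higher. ZFP42 held its call in 3 of the 4 fits that left out a library, and the genes other than it and TRIML2 in all 4.

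**Figure D1:**
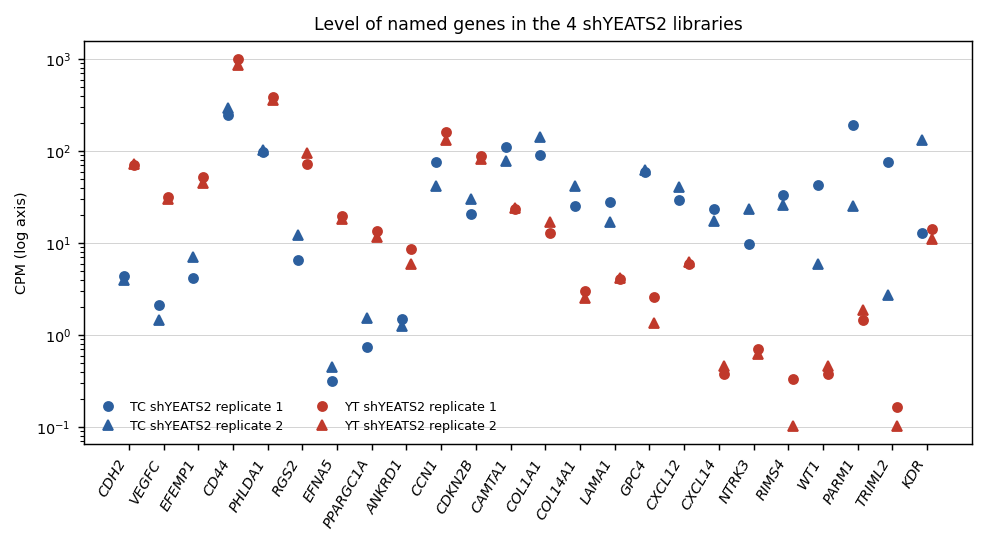
Level in CPM (log axis) of 24 named genes in the 4 shYEATS2 libraries, TC in blue and YT in red, with a circle for replicate 1 and a triangle for replicate 2. CDH2, VEGFC and CD44 show tight pairs far apart, while the TC replicates of PARM1, TRIML2 and WT1 lie far from each other, and TC replicate 1 of KDR lies beside the YT libraries.

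Of 23 genes known as YAP and TAZ targets, 6 were called higher in YT and 0 lower, with a median log2 difference of 0.24 against -0.03 over all genes tested. Under the other settings the list gave 6 to 9 higher and 0 to 4 lower, and its median was 0.004 without TC replicate 2. In shZZZ3, where 1.52% of all genes were higher in YT and 1.1% lower, 1 of the list was higher and 3 lower, with a median of log2 -0.225. In shNT, where 5.58% of all genes were higher and 3.65% lower, 5 were higher and 1 lower, with a median of log2 0.393. The line difference changed between shYEATS2 and shNT in 6 of the 23, against 9.37% of all genes tested. ANKRD1, a muscle and endothelial ankyrin-repeat protein, was at 1.51 and 1.26 CPM in TC and 8.74 and 5.94 in YT (log2 2.33 ± 0.33, adjusted p = 0.000776). CCN1, a secreted matricellular protein, was at 75.7 and 41.8 CPM in TC and 160 and 132 in YT (log2 1.31 ± 0.26, adjusted p = 0.00707). F3, the tissue factor that starts coagulation, AXL, a receptor kinase, MYOF and GADD45A were the other 4, at log2 differences of 1.44, 1.40, 0.80 and 0.87. CCN2, the other classical target, was at 63.4 and 41.3 CPM in TC and 40.7 and 31.1 CPM in YT and was not called (log2 -0.54 ± 0.23, adjusted p = 0.15). In fits without a library of this comparison the list gave 2 to 6 calls higher and 0 to 3 lower. Of 21 TEAD, VGLL and Hippo genes, VGLL4, a TEAD cofactor, was higher in YT (51.9 and 69.3 CPM in TC, 97.1 and 91.7 in YT), and the scaffold WWC1 (23.6 and 14.3 CPM in TC, 4.29 and 2.99 in YT) and TEAD4 (52.8 and 33.9 CPM in TC, 17.4 and 17.8 in YT) were lower. VGLL4 and TEAD4 held their calls in 1 each of the 4 fits without a library, WWC1 in all 4, and with library totals, with only genes averaging 50 or more counts, or with the median of neighbouring genes subtracted in each library, the list gave 0 higher and 3 lower. TEAD1, LATS2 and AJUBA differed by log2 -0.38, -0.57 and -0.59 without a call (adjusted p = 0.429, 0.0765 and 0.0505).

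Of 35 lysosomal, autophagy and nutrient-sensing genes of the TFE3 family, 5 were higher in YT and 0 lower, with a median of log2 0.21. PPARGC1A, the coactivator of mitochondrial biogenesis, was at 0.74 and 1.56 CPM in TC and 13.4 and 11.7 in YT (log2 3.39 ± 0.36, adjusted p = 0.000134). The other 4 changed by less than 2-fold: CD63, a tetraspanin of late endosomes (341 and 338 CPM in TC, 644 and 607 in YT), the protease CTSA, the peptidase TPP1 and the autophagy protein WIPI1. Without a library of this comparison 1 or 2 of the 35 were called, PPARGC1A each time. In shNT, where 5.58% of all genes were higher in YT and 3.65% lower, 15 of the 35 were called higher and 0 lower. The line difference itself differed between these 2 hairpins in 6 of the 35, against 9.37% of all genes tested. Among the 6 were GPNMB and RRAGD, which were at log2 2.31 and 2.70 in shNT and at 0.61 and -0.18 in shYEATS2.

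Promoter letters were read for these 2 lists, with GGAATG taken as a TEAD motif and CACGTG as an E-box. In the 250 bases before the start of each gene (RefSeq, GRCh38.p14), GGAATG or its reverse complement CATTCC was present in 11.9% of all 35116 promoters, in 9.64% of those of the 12656 matched genes tested, in 11.8% of 772 matched genes called higher in YT and in 8.77% of 775 called lower. The palindrome CACGTG was present in 6.34% of all promoters, in 8.67% of those of the genes tested, in 7.25% of those called higher and in 7.74% of those called lower. Of the YAP and TAZ targets called higher, 4 of 6 had a promoter in the table and 1, ANKRD1, held GGAATG. Of the 5 lysosomal genes called higher, 3 (CTSA, CD63 and PPARGC1A) held CACGTG. The lysosomal list was assembled from genes of the TFE3 family, and the share of CACGTG among its uncalled members was not counted. A match is a description of these letters and not a binding site. The study found both fusions mostly at distal sites, which these windows do not cover. ANKRD1, CTSA and CD63 are shown, gene strand 5′ to 3′, with the motif in capitals. The ANKRD1 window is chr10:90921088-90921337 (minus strand), that of CTSA chr20:45891085-45891334 (plus strand) and that of CD63 chr12:55729010-55729259 (minus strand).
ANKRD1: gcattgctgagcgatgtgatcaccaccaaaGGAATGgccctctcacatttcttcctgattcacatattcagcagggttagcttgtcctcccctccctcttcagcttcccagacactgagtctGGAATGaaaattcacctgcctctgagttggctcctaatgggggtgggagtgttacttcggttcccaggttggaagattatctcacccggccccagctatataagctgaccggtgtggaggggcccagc
CTSA: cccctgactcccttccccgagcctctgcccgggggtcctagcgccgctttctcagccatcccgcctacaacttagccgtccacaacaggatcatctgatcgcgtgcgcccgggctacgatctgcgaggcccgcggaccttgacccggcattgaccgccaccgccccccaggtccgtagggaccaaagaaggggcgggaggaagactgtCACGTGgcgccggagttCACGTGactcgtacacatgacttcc
CD63: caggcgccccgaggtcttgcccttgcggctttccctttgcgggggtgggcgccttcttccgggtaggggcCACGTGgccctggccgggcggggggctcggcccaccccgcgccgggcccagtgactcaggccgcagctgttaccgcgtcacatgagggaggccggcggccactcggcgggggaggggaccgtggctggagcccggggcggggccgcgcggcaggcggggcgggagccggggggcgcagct

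Matrix genes were split between the lines. Of 24 collagen chains, 5 were higher in YT and 4 lower. Type I collagen was lower: COL1A1 was at 91.1 and 144 CPM in TC and 12.9 and 17.2 in YT (log2 -2.96 ± 0.26, adjusted p = 5.2e-05), and COL1A2 at 41.5 and 32.7 CPM in TC and 8.87 and 9.45 in YT. COL14A1, a collagen that binds fibril surfaces, was at 25.4 and 41.8 CPM in TC and 3.04 and 2.53 in YT (log2 -3.55 ± 0.29, adjusted p = 3.75e-05). COL8A1, a short-chain collagen of vessel walls, was higher, at 17.7 and 49.0 CPM in TC and 128 and 150 in YT. COL6A3 was also lower, and COL12A1, COL5A2, COL4A4 and COL21A1 were also higher. Each fit that left out a library of this comparison called 4 collagens lower, while the calls higher numbered 1 and 6 without TC replicates 1 and 2 and 2 and 0 without YT replicates 1 and 2, and COL21A1 was called in none of them.

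Of 34 matrix glycoproteins and proteoglycans, 8 were higher and 8 lower, and without YT replicate 1 or 2 the count higher fell to 4 or 3, with 8 lower in both fits. GPC4, a cell-surface heparan sulfate proteoglycan, was at 59.5 and 62.1 CPM in TC and 2.62 and 1.34 in YT (log2 -4.86 ± 0.27, adjusted p = 9.19e-06), and its relative GPC3 at 28.4 and 11.1 CPM in TC and 0.874 and 1.29 in YT. FBLN5, which assembles elastic fibres, was at 36.5 and 19.7 CPM in TC and 5.04 and 3.87 in YT, and SPP1 (osteopontin) at 112 and 191 CPM in TC and 54.5 and 43.0 in YT. The fibulin EFEMP1 was higher, at 4.19 and 7.03 CPM in TC and 52.7 and 45.0 in YT (log2 3.11 ± 0.27, adjusted p = 4.48e-05). VTN (vitronectin) was at 10.1 and 2.91 CPM in TC and 5.95 and 7.33 in YT, with the YT libraries between the TC replicates. Of 15 basement membrane genes, 2 were higher and 2 lower: the laminin chain LAMA2 was at 0.0705 and 0.502 CPM in TC and 5.74 and 5.21 CPM in YT (log2 3.99 ± 0.61, adjusted p = 0.000762), LAMB2 was higher by log2 0.71, and LAMA1 (28.1 and 16.9 CPM in TC, 4.08 and 4.18 in YT) and LAMC3 were lower, at log2 -2.42 and -2.10.

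Of 17 proteases and their inhibitors, 6 were called higher in YT and 1 lower, and 4 to 7 were higher without 1 library of this comparison. MMP16, a membrane-bound metalloprotease, was at 0.0352 and 0.0502 CPM in TC and 5.74 and 5.52 in YT, at least 43.97-fold higher. TIMP3, a metalloprotease inhibitor, was at 287 and 302 CPM in TC against 1581 and 1423 in YT. PLAT, the tissue plasminogen activator, was lower, at 1161 and 608 CPM in TC and 221 and 234 in YT (log2 -1.96 ± 0.27, adjusted p = 0.000734).

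Adhesion genes differed in both directions. CDH2 (N-cadherin) was at 4.41 and 3.97 CPM in TC and 70.3 and 72.5 in YT (log2 4.06 ± 0.22, adjusted p = 9.19e-06), and each fit that left out a library of this comparison gave between 3.99 and 4.13. The giant cadherin FAT3 was also higher, at 0.705 and 2.46 CPM in TC and 23.8 and 25.6 in YT, as were FAT4 and PCDH18, so that 4 of 14 cadherins were higher and 3 lower. CDH12, PCDH19 and PCDH1 were the 3 lower ones, at log2 differences of -3.21, -3.20 and -2.23. Of 18 integrins and related matrix receptors 4 were higher and 2 lower (3 to 6 and 0 to 2 without a library). CD44, the hyaluronan receptor, was at 250 and 297 CPM in TC and 1003 and 868 in YT (log2 1.77 ± 0.19, adjusted p = 0.000131), and HAS2, which makes hyaluronan and is counted among the glycoproteins above, was at 9.48 and 6.53 CPM in TC and 54.4 and 45.3 in YT. ITGA2 and ITGB4 were higher by log2 1.91 and 1.97, while ITGA9 (47.0 and 117 CPM in TC, 18.2 and 21.9 in YT) and ITGA8 were lower.

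Among 31 receptor tyrosine kinases and growth factors, 7 were higher in YT and 8 lower, and without either YT library 5 were higher and 2 lower. Beside FGF5, the lymphatic growth factor VEGFC was at 2.11 and 1.46 CPM in TC and 31.4 and 29.9 in YT (log2 4.02 ± 0.27, adjusted p = 9.6e-06). MET, the receptor of hepatocyte growth factor, was at 19.4 and 14.7 CPM in TC and 96.5 and 79.4 in YT, and EGFR, its ligands EREG and AREG, and AXL were also higher. The neurotrophin receptor NTRK3 was lower, at 9.87 and 23.5 CPM in TC and 0.708 and 0.619 in YT (log2 -4.47 ± 0.46, adjusted p = 9.78e-05), as was FGFR1, at 233 and 266 CPM in TC and 105 and 106 in YT. Of 21 early and feedback genes of ERK signalling, 5 were higher and 1 lower. PHLDA1 was at 97.5 and 102 CPM in TC and 389 and 356 in YT (log2 1.90 ± 0.17, adjusted p = 4.85e-05), the phosphatase DUSP4 was at 196 and 185 CPM in TC and 442 and 407 in YT, and MYC, which lies on chromosome 8, was lower, at 19.6 and 26.8 CPM in TC and 11.9 and 9.13 in YT. MYC was called in 1 of the 4 fits without a library and not with the median of neighbouring genes subtracted. The list's calls higher fell to 2 without TC replicate 1 or either YT library.

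Cytokines gave the highest share of calls toward YT among the lists, with 7 of 17 higher and 2 lower and a median of log2 1.41. With the 50-count filter 7 of them were tested, 1 higher and 2 lower, with a median of log2 -0.84. LIF, an IL6-family cytokine, was at 2.71 and 2.56 CPM in TC and 13.4 and 16.6 in YT. TSLP was at 0.176 and 0.502 CPM in TC and 4.91 and 3.67 in YT, and CXCL5, CXCL1, CXCL8, IL6 and IL1B were the other 5. CXCL12, a homing chemokine, was lower, at 29.4 and 41.1 CPM in TC and 5.99 and 6.19 in YT (log2 -2.51 ± 0.22, adjusted p = 4.36e-05), as was TNFAIP3, an inhibitor of NF-kB signalling. Apart from LIF, the higher genes were all below 5 CPM in the 4 libraries. CXCL14, outside that list, was at 23.3 and 17.3 CPM in TC and 0.375 and 0.465 in YT.

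Of 15 low-oxygen and glycolysis genes, 5 were higher in YT and 0 lower, with a median of log2 0.59 and 14 of 15 above 0. CA9, a carbonic anhydrase, was at 0.67 and 0.653 CPM in TC and 4.91 and 8.31 in YT (log2 3.15 ± 0.41, adjusted p = 0.00038), and ENO2 was at 12.7 and 11.1 CPM in TC and 37.3 and 46.6 in YT. LDHA, PFKFB4 and BNIP3 were the other 3, and 3 to 5 genes were called higher without a library. Of 14 sterol synthesis genes 0 were called in edgeR, with 12 of 14 above 0 and a median of log2 0.48. Under the other settings that list gave 0 to 3 calls higher, and without a library of this comparison 0 to 6 higher and 0 to 1 lower.

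Calls among proliferation genes were toward lower levels in YT and depended on the libraries. Of 20 mitosis genes 4 were called lower and 0 higher, with a median of log2 -0.75 and 0 of 20 above 0, and of 20 replication genes 3 were lower and 0 higher, with a median of log2 -0.60. PLK1, a mitotic kinase, was at 130 and 77.1 CPM in TC and 41.6 and 40.7 in YT, and HMMR at 36.9 and 28.6 CPM in TC and 8.70 and 9.96 in YT. MCM4, a helicase subunit on chromosome 8, was at 198 and 114 CPM in TC and 69.0 and 65.3 in YT (log2 -1.21 ± 0.23, adjusted p = 0.00491). TC replicate 1 was above replicate 2 in each of these 3 genes. Without TC replicate 2, 12 mitosis and 11 replication genes were called lower, and without TC replicate 1, 1 and 1. Without YT replicate 1 they were 1 and 0, and without YT replicate 2, 0 and 0. In shNT the same lists gave 15 and 12 genes lower and 0 higher, and in shZZZ3, where 1.1% of all genes were lower in YT, 0 and 0. CDKN2B, an inhibitor of the G1 kinases, was at 20.9 and 29.9 CPM in TC and 88.9 and 81.3 in YT (log2 1.74 ± 0.24, adjusted p = 0.000665), and CDKN2D and CCND1 were higher too, though CDKN2D was called in 0 of the 4 fits without a library. The part of cell density in these values was not tested.

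Endothelial genes, which bear on the tumor's vascular identity, gave 5 of 20 called lower in YT and 0 higher, with a median of log2 -0.80. ERG, an endothelial ETS factor, was at 19.5 and 6.53 CPM in TC and 0.708 and 1.03 in YT (log2 -3.79 ± 0.49, adjusted p = 0.000436). CDH5 (VE-cadherin) was at 27.6 and 91.4 CPM in TC and 10.8 and 12.5 in YT. KDR, the main VEGF receptor, was at 12.8 and 133 CPM in TC and 14.4 and 11.2 in YT, so that TC replicate 1 lay with the YT libraries. Its log2 difference was -2.50 with both TC libraries (adjusted p = 0.0441), -3.37 without replicate 1 and 0.00 without replicate 2. For the list, 11 of 20 were called lower without TC replicate 1 and 3 without replicate 2, and 1 and 3 without YT replicates 1 and 2. In shZZZ3 the direction of calls was the opposite, with 4 higher in YT, as were 1.52% of all genes, and 1 lower, and a median of log2 1.03. The line difference itself differed from shYEATS2 in 5 of the 20, against 3.1% of all genes tested.

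**Figure D2:**
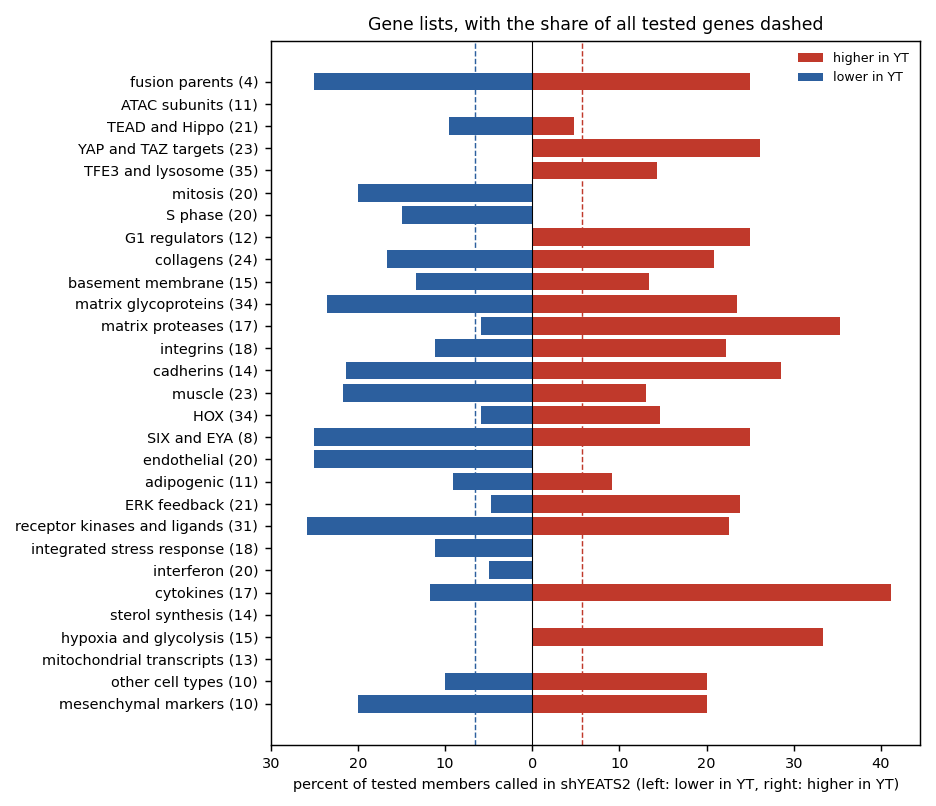
Percent of the tested members of each of 29 gene lists (number tested in parentheses) called higher in YT (red, to the right) and lower in YT (blue, to the left) under shYEATS2. Dashed lines mark the shares over all genes tested, 5.65% and 6.53%, and cytokines, proteases and low-oxygen genes extend farthest to the right.

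The line difference with YEATS2 lowered was compared with that in shNT and shZZZ3, where 1699 (9.23%) and 482 (2.62%) of the 18415 genes were called. The 3 comparisons use different libraries. Of the calls in shYEATS2, 337 were called in the same direction in shNT (15.0% of the shYEATS2 calls and 19.8% of the shNT calls) and 223 in the opposite direction. With shZZZ3, 252 were shared in direction (11.2% of the shYEATS2 calls and 52.3% of the shZZZ3 calls) and 40 were opposite. Among the 2242 calls, 56.4% had the sign they had in shNT and 74.0% the sign they had in shZZZ3, against 50.1% and 58.9% of all genes. Over 13258 genes, and genes do not count as replicates, the differences in shYEATS2 had Pearson r = 0.0739 with those in shNT (Spearman rho = 0.0338) and r = 0.419 with those in shZZZ3 (rho = 0.306). The differences in shNT and shZZZ3 had r = 0.219 with each other (rho = 0.165). Tests of the change in the line difference itself called 1725 genes between shYEATS2 and shNT (9.37%) and 571 between shYEATS2 and shZZZ3 (3.1%). Of the 1139 genes called in shNT and not in shYEATS2, this test called 478. Within each line, shYEATS2 against shNT called 3821 genes in YT (20.7%) and 8 in TC (0.0434%). Of the 2242 line calls, 1439 (64.2%) were also called in the YT knock-down and 6 (0.268%) in the TC knock-down. The shYEATS2 libraries enter both kinds of test, so this overlap is not separate support. Few calls in TC do not show that TC did not respond.

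**Figure D3:**
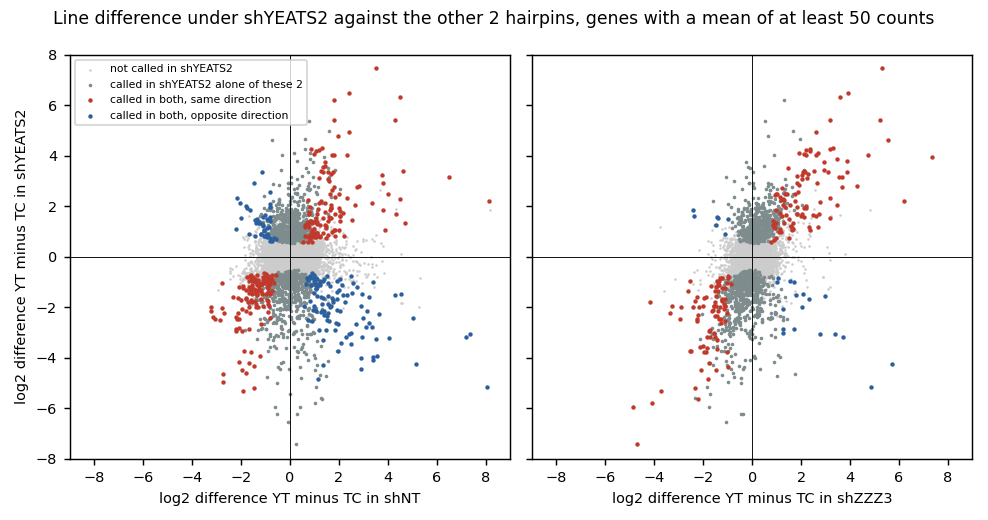
Log2 difference YT minus TC in shYEATS2 (vertical axis) against that in shNT (left) and shZZZ3 (right) for genes averaging 50 or more counts. Genes called in both comparisons are red where the direction was the same and blue where it was opposite, and the blue points are many more on the left (223 over all genes tested) than on the right (40).

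Genes called under all 3 hairpins in the same direction numbered 75, with 47 higher in YT and 28 lower, which is 3.35% of the shYEATS2 calls, 4.41% of the shNT calls and 15.6% of the shZZZ3 calls. SEMA3A, FGF5 and FLRT3, an adhesion protein that binds latrophilins, were the top 3 by their smallest difference, followed by GABRA2, ANK2 and KITLG. FGF5 differed by log2 6.32 in shYEATS2, 4.51 in shNT and 3.57 in shZZZ3. KITLG, the ligand of the KIT receptor, was at 1.51 and 2.71 CPM in TC shYEATS2 and 14.94 and 13.99 in YT shYEATS2, and its log2 differences were 2.74, 2.73 and 3.65. Its line difference changed by log2 0.01 ± 0.58 between shYEATS2 and shNT (adjusted p = 0.973), which was not a call. PPARGC1A, CDKN2B, LIF, VEGFC, EFEMP1 and CDH2 were also among the 47. CDH2 was present under each hairpin but not to the same degree, with log2 4.06 in shYEATS2, 0.9997 in shNT and 2.14 in shZZZ3, and the test of the change called it (log2 3.06 ± 0.29 against shNT, adjusted p = 0.000145).

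Among the 28 lower under every hairpin were COL1A2, CXCL14, CAMTA1, RNF150, EDN3 and APCDD1. COL1A2 was at log2 -2.01 in shYEATS2, -3.21 in shNT and -2.90 in shZZZ3. APCDD1, an inhibitor of Wnt signalling, was at 9.16 and 6.08 CPM in TC shYEATS2 and 0.999 and 2.17 in YT shYEATS2, with log2 differences of -2.23, -2.13 and -3.38. EDN3 (endothelin 3) was at 6.73 and 13.4 CPM in TC shYEATS2 and 1.75 and 1.75 in YT shYEATS2, and in shNT it was at 1.56 and 1.15 CPM in TC and 0.106 and 0.0575 in YT. Its direction was therefore shared while both lines held more of it under shYEATS2.

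A larger group was called with the YEATS2 hairpin and under neither other, 1525 genes or 68.0% of the 2242. Being called under one hairpin and missed under another does not show a difference, so the change itself was tested, and in 324 genes (14.5% of the calls, 109 higher and 215 lower) it was called against both shNT and shZZZ3 in the direction of the shYEATS2 difference. RGS2, which damps G protein signalling, was at 6.49 and 12.3 CPM in TC shYEATS2 and 73.2 and 95.2 in YT shYEATS2, while the shNT libraries held 4.08 and 6.21 CPM (TC) and 4.17 and 6.33 CPM (YT). Its line difference changed by log2 3.13 ± 0.53 against shNT (adjusted p = 0.00367) and by 4.25 against shZZZ3 (adjusted p = 0.00228). EFNA5 showed the same arrangement, with 0.528 and 0.403 CPM in YT shNT and 19.8 and 18.5 in YT shYEATS2, and a change of log2 4.59 ± 0.64. MAP2, LAMA2, PXDNL and PLEKHS1 were the other 4 of the leading 6 in this direction.

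RIMS4 was among the 215 genes whose change was toward lower levels in YT. It was at 16.8 and 10.5 CPM in TC shNT and 13.5 and 12.4 in YT shNT, close to each other, against 33.3 and 26.2 (TC) and 0.333 and 0.103 (YT) in shYEATS2. In shZZZ3 it was at 13.4 and 11.7 CPM in TC and 6.59 and 5.29 in YT, apart but not called (log2 -1.07 ± 0.30, adjusted p = 0.0975). The change was log2 -6.48 ± 0.53 against shNT (adjusted p = 9.48e-05) and -5.49 against shZZZ3 (adjusted p = 0.000654). Without 1 library of the shYEATS2 comparison, the line difference in shYEATS2 ranged from log2 -6.96 to -4.79 in CUX2. In SDK2, an adhesion protein of synapses, it ranged from -5.53 to -4.20. It ranged from -5.09 to -2.11 in CHGA (chromogranin A), from -5.56 to -2.35 in BCAN (brevican) and from -4.83 to -1.77 in FREM1. In those 3 genes TC replicate 1 was the higher, for FREM1 at 150 CPM against 17.9. These ranges concern the difference in shYEATS2 and not its change.

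Opposite directions in shYEATS2 and shNT were found in 223 genes, and in 171 of these YT was lower with YEATS2 lowered and higher with the non-targeting hairpin. Matrix genes among them included LAMA1, GPC4, FBLN5 and SPP1. The study named these 4 from the same libraries as among the genes most lowered by YEATS2 or ZZZ3 knock-down. Their fall in YT shYEATS2 was therefore part of how they were picked and is not separate support. LAMA1 was at 9.73 and 11.6 CPM in TC shNT and 340 and 371 in YT shNT, against 28.1 and 16.9 (TC) and 4.08 and 4.18 (YT) in shYEATS2. The line difference was log2 5.05 ± 0.30 in shNT and -2.42 ± 0.29 in shYEATS2, a change of -7.47 ± 0.41 (adjusted p = 1.42e-05). GPC4 was at 36.5 and 36.1 CPM in TC shNT and 80.6 and 80.9 in YT shNT, and its difference changed from log2 1.15 to -4.86. FBLN5 and SPP1 were likewise higher in YT under shNT (log2 1.88 and 1.33) and lower under shYEATS2 (log2 -2.63 and -1.63). In all 4 genes the 2 YT shYEATS2 libraries lay far below the 2 YT shNT libraries.

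Muscle genes differed in direction between the hairpins. Of 23 tested, 3 were higher in YT and 5 lower in shYEATS2, against 7 higher and 1 lower in shNT and 6 higher and 0 lower in shZZZ3, and the line difference changed between shYEATS2 and shNT in 10. Over all genes tested, 5.65% were higher and 6.53% lower in shYEATS2, 5.58% and 3.65% in shNT, and 1.52% and 1.1% in shZZZ3. The change was called in 9.37%. Without a library of the shYEATS2 comparison 0 or 1 were higher and 1 to 6 lower. MYH8, the perinatal myosin heavy chain, was at 0.305 and 0.43 CPM in TC shNT and 124 and 118 in YT shNT, and at 6.73 and 0.854 CPM in TC shYEATS2 and 0.0416 and 0 in YT shYEATS2. Its change was log2 -13.2 ± 1.36 (adjusted p = 0.000109). MYH13 and MYH2, in the same gene cluster, changed by log2 -10.4 each, and their lower level in YT shYEATS2 was called in 1 and 2 of the 4 fits without a library. The myosins of this cluster are near-identical in sequence, so counts of each are uncertain. DMD (dystrophin) remained higher in YT under every hairpin, by log2 8.13 in shNT and 6.19 in shZZZ3 and by 2.20 in shYEATS2, where it was at 0.0352 and 0.301 CPM in TC and 1.08 and 0.929 in YT and was called in 1 of the 4 fits without a library.

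Stress genes differed between hairpins as well. Of 18 targets of the ATF4 arm of the integrated stress response, 14 were higher in YT in shNT and 0 lower (median log2 1.74), 0 were higher and 2 lower in shYEATS2 (median -0.71, with 0 of 18 above 0), and the line difference changed in 14. SLC3A2, a subunit of amino acid transporters, was at 144 and 106 CPM in TC shNT and 369 and 408 in YT shNT, and at 230 and 299 CPM in TC shYEATS2 and 115 and 119 in YT shYEATS2 (change log2 -2.81 ± 0.34, adjusted p = 0.000518). PSPH, an enzyme of serine synthesis, was the other gene called lower. Without TC replicate 1 of shYEATS2 the list gave 5 genes lower, and without the other 3 libraries 1, 0 and 0. Of 20 interferon-induced genes 6 were higher in YT in shNT, and in shYEATS2 1, RSAD2, was lower, at 11.3 and 2.76 CPM in TC and 1.83 and 1.19 in YT, a call that held in 1 of the 4 fits without a library. The list's median in shYEATS2 was log2 0.42, with 15 of 20 above 0, and it gave 3 higher and 0 lower without TC replicate 1 and 7 higher and 2 lower with the GC trend removed. In shZZZ3 0 genes of either list were called. The shares over all genes are those given with the muscle genes above.

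**Figure D4:**
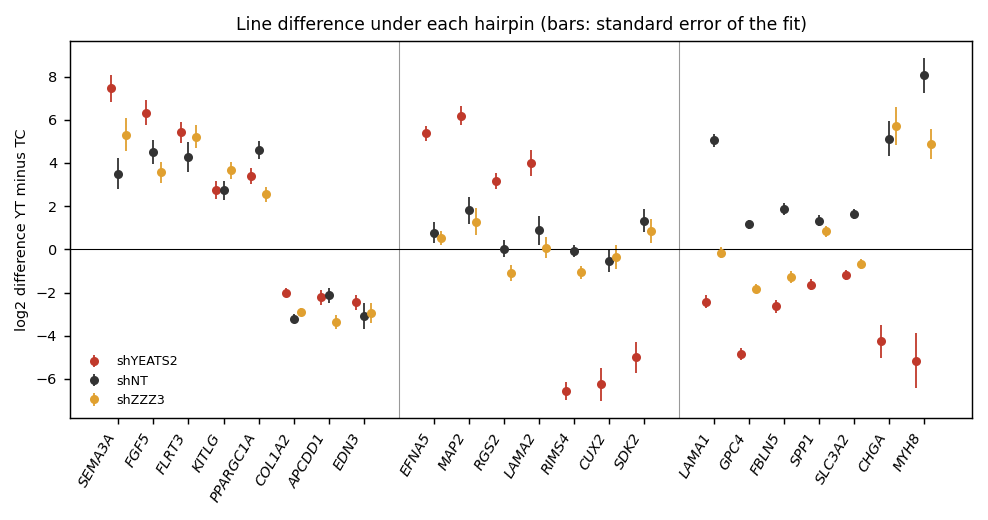
Log2 difference YT minus TC (points) with the standard error of the fit (bars) in shYEATS2, shNT and shZZZ3 for named genes in 3 blocks: called under all hairpins, changed in shYEATS2 against both other hairpins, and opposite between shYEATS2 and shNT. SEMA3A to EDN3 stay on 1 side of 0, RIMS4 and CUX2 leave 0 in shYEATS2, and LAMA1 goes from 5.05 in shNT to -2.42 in shYEATS2.

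The line difference was not even along the genome. On chromosome 8, singled out with chromosomes 9 and 16 after their values were seen, 92 of 637 genes were called lower in YT and 20 higher, with a median log2 difference of -0.49, against 0.09 in shNT and -0.17 in shZZZ3. The medians of chromosomes 16 and 9 were -0.33 and -0.29, and the highest median was 0.15, on chromosome 14. Over 453 chromosome 8 genes, the median deviation from each gene's mean over the 12 libraries was 0.07 and 0.09 in TC shYEATS2, -0.35 and -0.41 in YT shYEATS2, and between -0.14 and 0.21 in the other 8 libraries. The shift ran along the whole chromosome, since each of its 8 bins of 20 Mb had a median between -0.61 and -0.39. Chromosomes 8, 9 and 16 together held 20.9% of the genes called lower, 4.81% of those called higher and 12.2% of the genes tested. With the median of windows of neighbouring genes subtracted in each library, chromosome 8 gave 31 genes lower and 52 higher, and 2647 genes were called in all. DNA was not measured in these libraries, and the part of copy number was not tested.

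**Figure D5:**
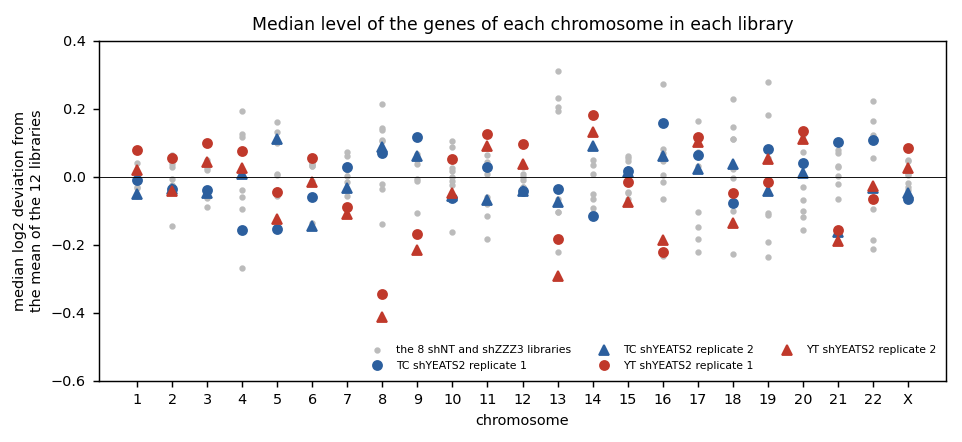
Median over genes, by chromosome, of the log2 deviation from each gene's mean over the 12 libraries, for TC shYEATS2 (blue), YT shYEATS2 (red) and the other 8 libraries (grey). On chromosome 8 the YT shYEATS2 libraries lie at -0.35 and -0.41, below all others.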

How the data were processed

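RNA was measured by poly(A) RNA-seq in 12 libraries of SW872 cells, grouped by fusion and hairpin from the library titles. The authors deposited raw counts per gene and library, made with the bcbio-nextgen pipeline against hg38 with Ensembl annotation; which counter gave them is not given in the sources used here, and replicates were not pooled. Gene IDs were given symbols from the reference annotation. The 18415 genes averaging 5 or more counts were fitted with edgeR 4.0.16 in R 4.3.3 (TMM, robust quasi-likelihood test, prior count 2) over 12 libraries in 6 groups that shared 1 estimate of the spread (residual df 6), and p-values were adjusted by Benjamini-Hochberg over all genes of each contrast. CPM values are scaled by TMM. In simulated counts, 156 of 198 genes changed 4-fold in YT shYEATS2 (78.8%) were called in the comparison of the lines under shYEATS2, of 18260 run. There 12 unchanged genes were also called. The simulation gave every group the same spread for a gene, so it does not hold the wider spread of the TC shYEATS2 pair.

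Alternatives were DESeq2 1.42.0 and its size factors, library totals, other count filters, a replicate block, removal of GC or positional trends, the contrast's libraries alone, and each library left out. Named were the fusion parents and ATAC subunits, the 10 largest protein-coding differences each way with at least 5 CPM, the 6 leading genes each way shared by all hairpins or changed against both others, the 4 largest reversals, the 2 largest calls each way of each list, and genes the study names (1 of all these is not reported here); other list members were chosen after their values were seen. The largest differences each way were drawn from called genes whose YT and TC pairs did not overlap in shYEATS2. The comparison, lists and tests were chosen with earlier results of these data known. The depth of 17451893 to 29294805 counts and the 2 libraries per group limit the precision; counting floors of 3 counts cover counting error only.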

Additional observations from a re-analysis of the deposited data

Results flagged for a closer look

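The YT minus TC difference changed between shYEATS2 and shNT in 1725 genes and between shYEATS2 and shZZZ3 in 571, by edgeR tests of the change itself with Benjamini-Hochberg adjustment over all genes. Among the genes named above whose change was called against both other hairpins, the difference in shYEATS2 exceeded that in shNT by log2 4.39 in MAP2, 4.59 in EFNA5, 3.45 in PXDNL, 3.13 in RGS2, 3.11 in LAMA2 and 3.03 in PLEKHS1. In the other direction it was below that in shNT by a log2 change of -6.48 in RIMS4, -5.71 in CUX2, -6.34 in SDK2, -6.18 in BCAN and -7.40 in FREM1. The 4 largest reversals had changes of log2 -9.40 in CHGA, -13.2 in MYH8, -10.4 in MYH13 and -10.4 in MYH2. Each of these rests on 2 libraries per group, and the causes were not tested.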

How the results depend on the processing

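In order of the line difference in shYEATS2, in shNT and in shZZZ3, its change against shNT and against shZZZ3, the calls shared with shNT and those shared by all 3 hairpins, the counts without 1 library each ranged from 841 to 2972, 470 to 3112, 96 to 748, 789 to 3029, 112 to 765, 98 to 459 and 26 to 107. The YEATS2 knock-down ranged from -1.763 to -1.392 in TC and from -1.767 to -1.576 in YT. With the GC trend removed the 7 counts were 4457, 3401, 1051, 3606, 1361, 845 and 162, and 99.4% of the 2242 calls were kept. Without a count filter the counts other than that in shYEATS2 were 2710, 1214, 2611, 1267, 571 and 154. With a mean of at least 50 counts they were 1490 in shYEATS2, 279 in shZZZ3 and 363 for the change against shZZZ3, with 13258 genes tested. DESeq2 called 789 in shZZZ3 and 907 for the change against shZZZ3. With the contrast's own libraries alone, 994 were called in shNT and 176 shared with it, the knock-down in TC was -1.565 (adjusted p = 0.1637), and 54.7% of the shYEATS2 calls were higher in YT, against 38.6% with library totals, which set the median of all genes at -0.11. Except where counts are given here, causes were not tested.

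The replicate numbers were not taken to pair the samples: across genes the replicate differences of the 15 pairs of groups had r from -0.438 (TC and YT shNT) to 0.898 (TC shNT and YT shZZZ3), over 0.1 in 7, and r = -0.0166 for TC and YT shYEATS2. The fit with the replicate block called 2735 genes in shYEATS2 and kept 2239 of the 2242. With the YT shNT numbers crossed, chosen after seeing the data, the shNT count was 2602.

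Signs reversed in 7 genes, of which MBIP, KAT2B and TADA2A are ATAC subunits counted above, that lie near 0 or rest on 1 library. YAP1 was at -0.039 with library totals, and without 1 library from -0.11 (-0.02 without YT shYEATS2 replicate 1) to 0.21. VTN was at -0.056 with library totals, -0.0014 without a count filter and -0.013 with the GC trend removed, and from -0.60 (-0.15 without YT replicate 2) to 1.16 without 1 library. MBIP was at 0.0025 with the GC trend removed, and from -0.35 to 0.14 (0.06 without TC replicate 2) without 1 library. The same ranges were -0.33 to 0.28 (0.04 without YT replicate 2) in KAT2B, -0.33 to 0.038 in YEATS2, -0.13 to 0.034 in TADA2A and -3.37 to 0.0020 in KDR, for which TC replicates 1 and 2 set the ends.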

Other observations

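Transcription factors that set positional and lineage identity also differed between the lines with YEATS2 lowered. Of 34 HOX genes, 5 were higher in YT and 2 lower. HOXC12 was at 0.352 and 0.653 CPM in TC and 6.87 and 5.88 in YT (log2 3.49 ± 0.44, adjusted p = 0.00033), and HOXC10 at 4.05 and 4.07 CPM in TC and 13.2 and 12 in YT (log2 1.61 ± 0.24, adjusted p = 0.00114). HOXD13, a factor of the distal limb, was at 13.4 and 12 CPM in TC and 2.87 and 2.94 in YT (log2 -2.09 ± 0.26, adjusted p = 0.000364). Without 1 library of this comparison the log2 difference ranged from 3.12 to 3.87 in HOXC12 and from 1.54 to 1.67 in HOXC10. In HOXD13 it ranged from -2.17 to -2.02. The change of the line difference against shNT was called in each of these 3. HOXC12 was lower in YT under shNT (log2 -1.56, adjusted p = 0.0443).

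Of 8 genes of the SIX2 and EYA4 families, 2 were higher and 2 lower. EYA4, a phosphatase and coactivator, was at 2.15 and 3.27 CPM in TC and 15.7 and 14.8 in YT (log2 2.47 ± 0.34, adjusted p = 0.00063), while SIX2 was at 8.21 and 4.82 CPM in TC and 1.25 and 1.60 in YT. EYA3 was the other higher gene and EYA2 the other lower one. Without 1 library of this comparison the log2 difference ranged from 2.19 to 2.77 in EYA4 and from 0.478 to 0.682 in EYA3. In SIX2 it ranged from -2.47 to -1.71, and in EYA2 from -1.325 to -1.147. Of 11 adipocyte genes tested, SCD, a fatty acid desaturase, was higher (558 and 595 CPM in TC, 1018 and 1003 in YT) and CEBPA, a factor of fat cell differentiation, lower. CEBPA was at 2.96 and 3.52 CPM in TC and 0.208 and 0.258 in YT (log2 -3.37 ± 0.53, adjusted p = 0.000776), and the TC and YT pairs of shNT, at 3.395 and 1.433 CPM and at 3.75 and 3.62 CPM, were not called. Of the mitochondrially encoded mRNAs, 0 of 13 were called.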
